A study of Mus musculus with 292 samples.

Results

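Dbp, Tef and Hlf form the PAR-bZIP group of transcription factors, and Nfil3 is the related bZIP repressor. These 4 genes, taken by the symbol of their Ensembl identifier, are 4 of the 48795 gene identifiers in the count tables, and all 4 passed the filter on low counts in every tissue. DBP, TEF and HLF are activators that bind the D-box, a short DNA element, and NFIL3, also called E4BP4, is a repressor that binds the same element. In the circadian clock, CLOCK and BMAL1 drive Dbp through E-boxes, and the REV-ERB repressors act on Nfil3 through another element, the RRE. PAR-bZIP factors are best known in liver, where they drive genes of xenobiotic and lipid metabolism, and in brain, where mice without all 3 of them have seizures.

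The genes were measured by mRNA sequencing in 292 libraries, 78 from cerebral cortex, 60 from striatum, 77 from hypothalamus and 77 from liver. Every mouse was a wild-type male of the C57BL/6J strain, 26 weeks old, so that no group differs in genotype, sex or age, and no treatment is given. Mice were sampled every 3 h for 36 h, and the 13 time points fold onto 8 zeitgeber times (ZT, which by convention counts hours from lights-on), of which ZT15, ZT18 and ZT21 were sampled in the first cycle alone. The sources used here state neither the light nor the feeding schedule. These are bulk tissues, in which fewer cells of a type and less RNA per cell cannot be told apart.

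On the GRCm38 build, with GENCODE M21 gene models, Dbp (ENSMUSG00000059824) lies on chr7:45705088-45710203 on the + strand, and Tef (ENSMUSG00000022389) on chr15:81802421-81826863 on the + strand. Hlf (ENSMUSG00000003949) lies on chr11:90336536-90390895 and Nfil3 (ENSMUSG00000056749) on chr13:52967209-52981073, both on the - strand. The antisense gene Sphk2, a sphingosine kinase, shares 539 bases with the exons of Dbp, 18.0% of them. The antisense gene Gm17597 shares 193 bases with the exons of Tef, 2.45% of them. Since the sources used here do not state the strand setting of the counting, reads from these bases cannot be assigned to one gene of a pair. No exonic base of Hlf or Nfil3 is shared with another gene model.

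RefSeq start sites (table of GRCm38.p6) gave 1 promoter window each for Dbp, Hlf and Nfil3 and 2 for Tef, from 250 bases before to 50 after the start. The windows were searched on both strands for the E-box CACGTG, for the D-box spelled TTATGTAA or TTACGTAA, and for the RRE. Both Tef windows held an E-box, beginning at -127 and -138 bases from their start sites, as did 7.15% of all 32851 windows. Both lie inside the GENCODE model of Tef given above, the E-box of the first in its first exon and that of the second between exons, so they are upstream of RefSeq starts and not of that model. None of the 3 motifs was found in the windows of Dbp, Hlf and Nfil3, and neither the D-box (1.06% of all windows) nor the RRE (0.298%) in those of Tef. The sequences below are shown because they set the Tef sites beside the windows of Dbp and Nfil3, the members with the widest and the opposite rhythm; each runs 5′ to 3′ on the strand of its gene, capitals mark the E-box, and bases that GENCODE places in an exon of Dbp or Nfil3 are left out. A match or its absence describes these letters only.
Tef first window, site at chr15:81802534-81802563: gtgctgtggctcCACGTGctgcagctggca
Tef second window, chr15:81811164-81811413: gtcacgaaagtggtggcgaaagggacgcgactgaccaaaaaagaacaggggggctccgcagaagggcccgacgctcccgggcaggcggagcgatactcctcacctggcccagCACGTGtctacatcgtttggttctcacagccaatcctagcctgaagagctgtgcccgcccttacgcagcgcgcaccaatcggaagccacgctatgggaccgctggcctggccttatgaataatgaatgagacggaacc
Dbp, chr7:45704997-45705087: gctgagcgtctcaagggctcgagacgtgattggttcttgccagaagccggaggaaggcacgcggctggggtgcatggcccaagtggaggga
Nfil3, chr13:52981074-52981289: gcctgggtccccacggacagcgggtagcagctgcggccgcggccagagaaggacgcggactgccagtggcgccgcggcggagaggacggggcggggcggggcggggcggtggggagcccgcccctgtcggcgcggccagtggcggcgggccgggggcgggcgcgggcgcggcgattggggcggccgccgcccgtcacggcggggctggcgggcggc

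Library totals, in mega counts (M), were 28.3 to 40.5 M for cortex, 11.7 to 43.4 M for striatum, 29.2 to 50.01 M for hypothalamus and 11.7 to 41.9 M for liver. Outside striatum each ZT was covered by 6 to 12 libraries. Striatum had 2 libraries at ZT15, 4 at ZT18 and 6 to 11 at every other ZT. Across 292 libraries, 7 stood apart: cortex ZT0 replicate 1 and ZT9 replicate 9 (4.41 and 12.7 CPM, counts per mega count of the library, of the cortical marker Slc17a7, against at least 882 in the other libraries of those times), striatum ZT21 replicate 3 (cerebellar Gabra6 at 874), hypothalamus ZT0 and ZT9 replicates 9 (pituitary Gh at 29306 and 20929), striatum ZT3 replicate 5 (11.7 M counts) and liver ZT18 replicate 4 (62.3% of its counts from Gm42418). In striatum, the summed level of 6 striatal markers ran from 69.95 to 5813 CPM (median 1407), and no striatal marker was at 0 in all of its libraries. That of 4 liver markers (Alb, Apoa1, Cps1 and Ttr) reached 21596 there (median 336), and that of 3 choroid plexus markers 365 (median 12.9). The 4 liver markers were not set apart from each other. Hypothalamic (7), cortical (4) and cerebellar (3) markers summed to at most 410, 420 and 2820 CPM in striatum (medians 98.2, 23.2 and 0.798). In cortex, the same striatal markers reached 4263 CPM (median 750) and the same liver markers 4369 (median 26.0). The tissue these reads came from was not tested. The part of these differences in the striatal and cortical results below was not tested.

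Between tissues, levels are given as FPKM, the authors' counts per mega count of the library divided by gene length in kilobases, with the SD over all libraries of the tissue. Dbp averaged 25.1 in striatum (SD 10.8, n = 60), 20.4 in cortex (8.96, n = 78), 17.8 in hypothalamus (5.73, n = 77) and 17.1 in liver (21.9, n = 77), each mean taken over the 8 ZT means. Tef averaged 53.8 in cortex (SD 7.12), 42.4 in striatum (9.98), 39.2 in hypothalamus (2.97) and 20.6 in liver (14.4). Hlf averaged 44.7 in cortex (SD 6.17), 20.9 in striatum (5.96), 14.6 in hypothalamus (1.60) and 9.49 in liver (2.85). Tef and Hlf were thus lowest in liver on this scale and highest in cortex. For Dbp, the order of liver and hypothalamus depended on the averaging, since over all libraries the means were 19.8 in liver and 18.5 in hypothalamus. Nfil3 was highest in liver, with 14.9 in liver (SD 8.64), 4.71 in hypothalamus (0.976), 3.96 in cortex (1.19) and 3.61 in striatum (1.09).

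The test of the mean level, which compares means on the log2 scale after TMM scaling, passed for 4 of 4 members in each of the 6 tissue pairs. Most genes pass it (88.7% between cortex and hypothalamus, 96% between cortex and liver, 94.9% between hypothalamus and liver, 85.1% between cortex and striatum, 72.8% between striatum and hypothalamus, 92.6% between striatum and liver), so the sizes carry more than the calls. Nfil3 was 6.16-fold higher in liver than in cortex (log2 2.62 ± 0.06 SE), 5.67-fold higher than in hypothalamus and 6.62-fold higher than in striatum. Scaled to the library total, these differences shrank to log2 1.79, 1.52 and 1.89. Hlf was 3.42-fold lower in hypothalamus than in cortex (log2 -1.78 ± 0.02) and 2.10-fold lower in striatum than in cortex (log2 -1.07 ± 0.05). The smallest differences were those of Nfil3 between cortex and hypothalamus (log2 0.11 ± 0.04, adjusted p = 0.00552) and between cortex and striatum (log2 -0.12 ± 0.05, adjusted p = 0.0213). The former no longer passed in the first cycle alone (log2 0.08, adjusted p = 0.106) and was log2 0.28 under the library total. The latter no longer passed with the mouse as a block (log2 -0.10, adjusted p = 0.071) or under the library total (log2 -0.09, adjusted p = 0.0805). Scaling to the library total shifted the median of all genes to -0.83 between cortex and liver and to -0.95 between hypothalamus and liver. Hlf was 0.35 (log2) higher in liver than in hypothalamus under TMM and 0.65 lower under the library total (-0.65), so the direction of that difference depends on the scaling. No other member difference turned.

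From here on, CPM values within a tissue are after TMM scaling of the library total. A rhythm is a 24 h cosine fitted to the counts, and its ratio divides the fitted peak by the trough. A gene is called at an edgeR adjusted p under 0.05 over all genes tested. ZT groups said below to overlap, or to lie apart or without overlap, are mostly those with the highest and lowest ZT mean of that gene and tissue. That choice favours separation, and the share of all genes so separated was not computed. All 4 members were called rhythmic in cortex, hypothalamus and liver, and Dbp and Nfil3 alone in striatum. Of all genes tested, 43.7% were called in cortex, 24.3% in hypothalamus, 72.8% in liver and 5.7% in striatum, so that a call is common in liver and cortex and the ratio is the more telling value there.

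Dbp, the activator with the widest rhythm, went in liver from the lowest to the highest level of the 4 members per length, with ZT means of 0.378 FPKM at ZT0 and 60.3 FPKM at ZT9. Its 12 liver libraries at ZT0 lay at 0.643 to 1.72 CPM (median 1.06, 24 to 59 counts each), and its 11 libraries at ZT9 at 154 to 194 CPM (median 177). Between them, libraries at ZT3 lay at 1.21 to 39.3 CPM (median 6.05) and those at ZT6 at 32.03 to 112 (median 91.0). The groups at ZT0 and ZT9 were far apart, and the spread was widest on the rise at ZT3, where the SD reached 116% of the mean. On the way down, Dbp was at 58.9 to 124 CPM at ZT12 (median 108), 9.69 to 25.8 at ZT15 (median 18.0), 4.18 to 9.02 at ZT18 (median 6.12) and 1.60 to 3.34 at ZT21 (median 2.7). The fitted ratio in liver was 132-fold (95% interval 91.0 to 192, adjusted p = 6.52e-34), the rank 3 among called liver genes, with a peak at ZT9.69 ± 0.14 (SE). On the log2 scale it was 7.05, and 5.71 when fitted by limma to log2(FPKM + 1), a pseudocount above the level at ZT0. Leaving the fitted curve aside, the mean at ZT9 was 176 ± 11.7 CPM (SD, n = 11) and that at ZT0 was 1.09 ± 0.324 (n = 12).

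In the brain, Dbp never fell below 24.7 CPM and its rhythm was narrower. In cortex, libraries at ZT0 lay at 24.7 to 55.7 CPM (median 31.3) and at ZT9 at 62.3 to 185 (median 85.4), without overlap. The highest value of each time belongs to a library nearly without the cortical marker: ZT0 replicate 1 was at 55.7 where the other 11 reached 38.4, and ZT9 replicate 9 was at 185 where the other 11 reached 97.5. The fitted ratio was 2.78-fold (log2 1.47 ± 0.09, adjusted p = 7.07e-23), with the peak at ZT11.5 ± 0.26, and it was called with and without those libraries. In hypothalamus, 6 libraries at ZT21 lay at 29.1 to 41.4 CPM and 11 at ZT9 at 58.6 to 99.2, again without overlap. The ratio there was 2.18-fold (log2 1.13 ± 0.07, adjusted p = 7.01e-22) with the peak at ZT9.65 ± 0.25.

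In striatum, Dbp was called with a ratio of 2.05-fold (log2 1.04 ± 0.17, adjusted p = 8.08e-05) and a peak at ZT9.87 ± 0.71. The 11 libraries at ZT12 lay at 73.7 to 203 CPM (median 88.2) and the 6 at ZT21 at 30.4 to 71.0 (median 46.5), which do not overlap by a narrow margin. The small groups between them were mixed, with 48.95 and 60.8 CPM in the 2 libraries at ZT15 and 43.3, 100.7, 65.8 and 118.5 in the 4 at ZT18. Sphk2, which shares bases with Dbp, was called rhythmic in the 4 tissues, with peaks at ZT23.0 (cortex), ZT20.3 (striatum), ZT20.3 (hypothalamus) and ZT1.10 (liver), in the hours when Dbp was low. Its ratios were 1.498-, 1.29-, 1.27- and 1.57-fold and its mean levels 21.0, 19.9, 25.2 and 46.8 CPM in that order. Its part in the Dbp counts at ZT0 in liver was not tested.

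Tef, the activator with the highest level in all 4 tissues per length when averaged over ZT, had a wide rhythm in liver and a narrow one in brain. At single times in liver, Dbp was above it at ZT6 and ZT9 and Hlf at ZT0. In liver, 12 libraries at ZT0 lay at 31.5 to 46.4 CPM (median 35.8) and 11 at ZT9 at 298 to 368 (median 329.8), far apart. The levels then fell through 258 to 313 at ZT12 and 171 to 213 at ZT15 to 82.3 to 102 at ZT21. The ratio was 7.51-fold (log2 2.91 ± 0.12, adjusted p = 6.7e-32) and the peak at ZT11.7 ± 0.18.

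In cortex, Tef lay at 321 to 393 CPM at ZT3 (n = 12) and at 475 to 505 at ZT15 (n = 6), without overlap, since the SD within a ZT group was no more than 10.2% of the mean. Its ratio of 1.40-fold (log2 0.48 ± 0.03, adjusted p = 5.03e-21) peaked at ZT14.9 ± 0.26. In hypothalamus the ratio was smaller still at 1.10-fold (log2 0.13 ± 0.02, adjusted p = 5.45e-05), with a peak at ZT12.9 ± 0.78. Libraries there lay at 276 to 304 CPM at ZT3 and 321 to 373 at ZT15, so that all libraries of those times were separated. Gm17597, which shares a small part of the exons, was at means of 0.37 to 2.39 CPM and was called in cortex and liver.

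Tef was not called in striatum (ratio 1.11-fold, log2 0.15 ± 0.13, adjusted p = 0.811). The SD within its ZT groups of 6 or more libraries there was 18.1 to 24.2% of the mean, against 2.77 to 7.05% in hypothalamus. The 4 libraries at ZT18 lay at 249, 459, 222 and 478 CPM and the 2 at ZT15 at 325 and 310.2, against 215 to 491 over the 11 libraries at ZT6, so that all of these values overlap.

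Hlf, the third activator, was the least rhythmic member in liver and the latest of the activators in cortex. In liver, 12 libraries at ZT3 lay at 33.0 to 44.1 CPM (median 39.9) and 11 at ZT9 at 62.3 to 108 (median 80.0), without overlap, and levels stayed near that height through ZT15 (73.2 to 91.6). The ratio was 1.98-fold (log2 0.99 ± 0.08, adjusted p = 4.05e-18), with a peak at ZT13.3 ± 0.33. In cortex, Hlf lay at 225 to 290.0 CPM at ZT6 and 338 to 390.0 at ZT15, without overlap. Its ratio of 1.36-fold (log2 0.44 ± 0.05, adjusted p = 1.19e-10) peaked at ZT15.9 ± 0.42. Cortex ZT0 replicate 1 was low at 154 CPM, where the other 11 libraries of that time lay at 247 to 305.

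In hypothalamus, Hlf had a ratio of 1.13-fold (log2 0.17 ± 0.04, adjusted p = 0.00255) and a peak at ZT13.3 ± 0.99. Its highest and lowest ZT groups overlapped there, at 93.1 to 140.4 CPM at ZT15 and 73.5 to 97.99 at ZT3. Hlf was not called in striatum (ratio 1.16-fold, log2 0.21 ± 0.14, adjusted p = 0.702). The 2 striatum libraries at ZT15 were at 84.1 and 109.5 CPM and the 4 at ZT18 at 103, 194, 113 and 191, while the median SD within the larger ZT groups was 27.0% of the mean.

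Nfil3, the repressor, was high when Dbp was low in every tissue. In liver, 12 libraries at ZT0 lay at 39.4 to 66.1 CPM (median 51.0) and 11 at ZT9 at 6.01 to 9.78 (median 8.28), far apart. The ratio was 4.74-fold (log2 2.24 ± 0.14, adjusted p = 1.24e-22), with a peak at ZT22.1 ± 0.25. In cortex, Nfil3 lay at 7.68 to 13.7 CPM at ZT0 and 3.98 to 5.97 at ZT12, without overlap, the lowest value at ZT0 being that of replicate 1, which is nearly without the cortical marker. The cortical ratio was 1.97-fold (log2 0.98 ± 0.08, adjusted p = 8.91e-17) with a peak at ZT23.6 ± 0.34.

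In hypothalamus, Nfil3 lay at 11.1 to 14.9 CPM at ZT0 and 5.95 to 8.64 at ZT9, without overlap. The ratio was 1.67-fold (log2 0.74 ± 0.06, adjusted p = 9.55e-16) and the peak at ZT20.8 ± 0.31. In striatum, the group at ZT0 (7.22 to 11.7 CPM, n = 9) overlapped that at ZT9 (3.496 to 8.03, n = 9), and the ratio of 1.62-fold (log2 0.69 ± 0.11, adjusted p = 3.95e-05) peaked at ZT21.8 ± 0.71. Its 2 libraries at ZT15 were at 6.31 and 7.65 CPM and the 4 at ZT18 at 9.64, 6.21, 7.17 and 5.62. Striatum ZT21 replicate 3, the library with cerebellar marker, had the highest Nfil3 of the tissue at 15.8 CPM, where the other 5 of that time lay at 6.60 to 8.91.

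**Figure D1:**
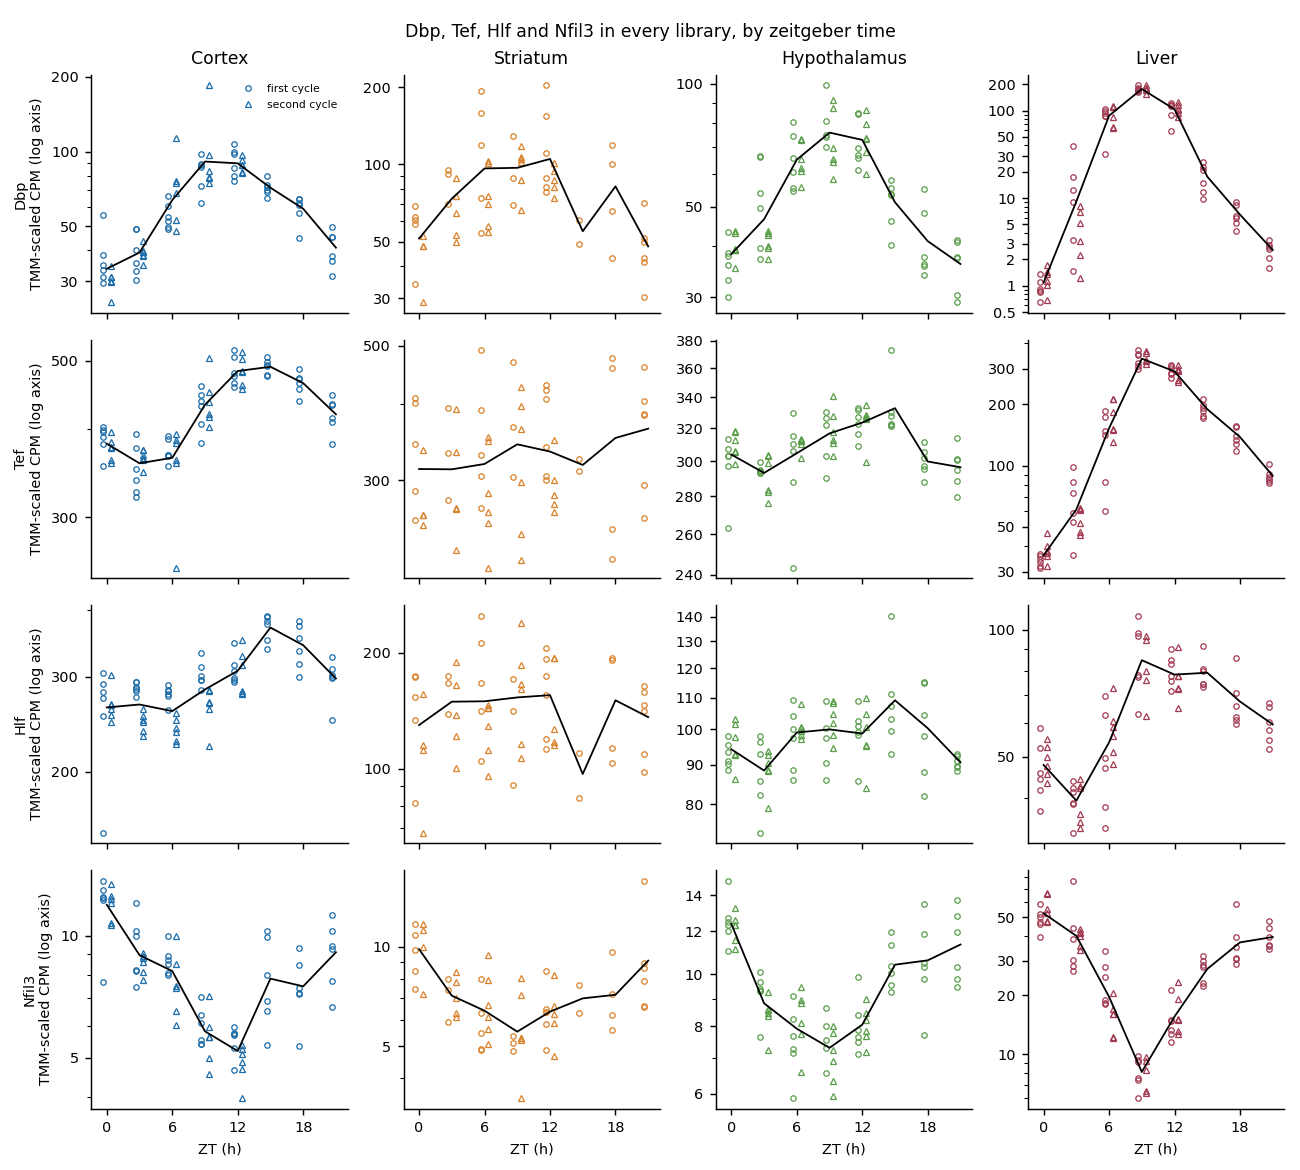
CPM after TMM scaling (log axis) of Dbp, Tef, Hlf and Nfil3 in every library against ZT in hours, by tissue; circles are the first cycle, triangles the second, and the line joins the ZT means. Dbp in liver climbs from 1.09 at ZT0 to 176 at ZT9 while Nfil3 falls from 52.3 to 8.13, and Tef in hypothalamus stays between ZT means of 293 and 333.

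The fitted peaks of the members came in a similar order in the 3 tissues where all were called. Those of Tef and Hlf in hypothalamus lay within their SE of each other (ZT12.9 ± 0.78 and ZT13.3 ± 0.99). In liver, Dbp, Tef and Hlf all had their highest ZT mean at ZT9. The rhythms there were not plain cosines, so the liver lags are those of the fit. Tef followed Dbp by 3.38 ± 0.36 h in cortex, 3.22 ± 0.82 h in hypothalamus and 2.01 ± 0.23 h in liver (± combined SE). The combined SE takes the peaks as independent, although genes share libraries and tissues share mice. Hlf followed Dbp by 4.39 ± 0.49, 3.64 ± 1.02 and 3.62 ± 0.36 h in those tissues. The peaks of Nfil3 and Dbp were close to opposite, 11.9 ± 0.43 h apart in cortex, 11.1 ± 0.40 h in hypothalamus, 11.6 ± 0.29 h in liver and 11.9 ± 1.0 h in striatum. Cortex was later than the other tissues for Dbp, by 1.86 ± 0.35 h against hypothalamus, 1.83 ± 0.29 h against liver and 1.64 ± 0.75 h against striatum, and for Tef by 3.20 ± 0.31 h and Hlf by 2.60 ± 0.54 h against liver. The Dbp peaks of liver and hypothalamus were 0.04 ± 0.28 h apart. Nfil3 peaked earliest in hypothalamus, 2.79 ± 0.46 h before cortex and 1.31 ± 0.40 h before liver, although the gap to striatum of 0.96 ± 0.77 h was within 2 SE.

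The rhythm itself, ratio and timing together, was compared between tissues by the interaction of tissue with the cosine, which shares the libraries of a tissue between pairs. All 4 members differed between cortex and hypothalamus (6.14% of genes called), cortex and liver (63.6%), hypothalamus and liver (60.6%) and striatum and liver (42%). By edgeR's adjusted p, none differed between cortex and striatum (0.501% called) or between striatum and hypothalamus (0.292%). Before adjustment, 4 of 4 had a p under 0.05 in the former pair and 0 of 4 in the latter. The share of all genes with an unadjusted p under 0.05 is not given here, and the percentages called are no measure of it. With the mouse as a block over the animals with both tissues, the calls over all genes fell from 97 to 9 for cortex and striatum and from 59 to 0 for striatum and hypothalamus, and the members stayed uncalled. The difference between cortex and hypothalamus had a size of 1.64-fold for Dbp (adjusted p = 1.84e-05), 1.296-fold for Tef (1.63e-11), 1.254-fold for Hlf (0.00229) and 1.57-fold for Nfil3 (5.03e-06), where size is the ratio of the cosine of the difference. In the first cycle alone the difference of Hlf was not called (log2 0.19, adjusted p = 0.485). Between liver and hypothalamus the sizes were 61.3-fold for Dbp and 6.90-fold for Tef, and 1.75-fold for Hlf and 2.93-fold for Nfil3.

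**Figure D2:**
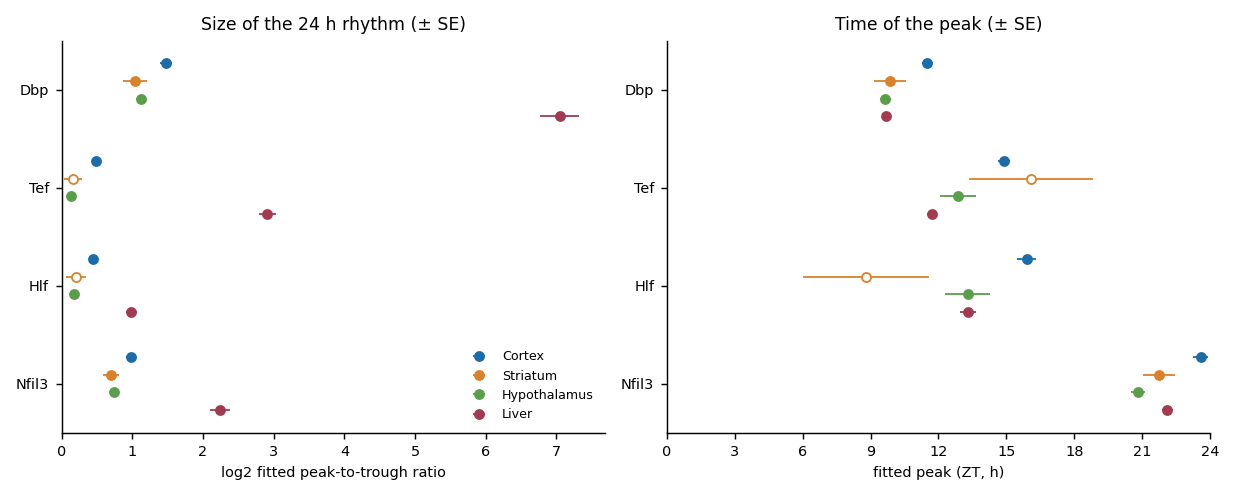
Fitted peak-to-trough ratio (log2) and fitted peak time (ZT in hours), both with bars of 1 SE, of the 4 genes in each tissue; open symbols are not called. The liver ratios of Dbp (7.05), Tef (2.91) and Nfil3 (2.24) stand above those of the 3 brain tissues, while Nfil3 peaks between ZT20.8 and ZT23.6 in all 4 tissues.

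Single times of day gave the same picture where the contrast falls near a peak. At ZT12 against ZT0, Dbp was higher by 95.5-fold in liver, 2.66-fold in cortex, 2.04-fold in striatum and 1.91-fold in hypothalamus (adjusted p = 3.03e-28, 4.27e-16, 0.00206 and 8.73e-13). Nfil3 fell between the same times, by 1.75, 1.20, 0.63 and 0.62 on the log2 scale in that order, and passed in the 4 tissues. In the first cycle alone neither striatal call remained (Dbp 1.09, adjusted p = 0.307; Nfil3 -0.58, adjusted p = 0.656). Tef and Hlf rose in liver (8.02- and 1.64-fold) and in cortex (1.27- and 1.17-fold), and in striatum both stayed uncalled (adjusted p = 0.889 and 0.687). In hypothalamus Tef passed narrowly (log2 0.09 ± 0.03, adjusted p = 0.0446), a call lost under 5 of the other settings, and Hlf did not (0.07 ± 0.05, adjusted p = 0.488). The members called were thus 4, 4, 3 and 2 in liver, cortex, hypothalamus and striatum, where 46.8%, 22.4%, 10.4% and 1.36% of genes were.

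At ZT9 against ZT21, Dbp was higher and Nfil3 lower in the 4 tissues, with log2 differences of Dbp of 6.11 ± 0.44 in liver, 1.15 ± 0.15 in cortex, 1.07 ± 0.12 in hypothalamus and 1.02 ± 0.25 in striatum. For Nfil3 the differences were -2.28 ± 0.16, -0.65 ± 0.11, -0.64 ± 0.09 and -0.71 ± 0.16. Tef (1.92 ± 0.15) and Hlf (0.51 ± 0.11) passed in liver alone, so that 4, 2, 2 and 2 members were called where 32.1%, 12%, 4.86% and 1.94% of genes were. Without striatum ZT21 replicate 3 and ZT3 replicate 5, neither striatal call remained (Dbp 0.97, adjusted p = 0.123; Nfil3 -0.49, adjusted p = 0.211), nor did they in the first cycle alone (adjusted p = 0.667 and 0.612).

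The rhythms in liver were not plain cosines. A component with a 12 h period passed for 4 of 4 members there, with ratios of 2.20-fold for Dbp (adjusted p = 0.000466), 1.75-fold for Tef (3.11e-09), 1.32-fold for Hlf (0.000148) and 1.86-fold for Nfil3 (1.68e-07), where 15.4% of genes were called. In the levels of Dbp this is a climb from 1.06 to 177 CPM (medians) between ZT0 and ZT9 and a slower decline over the following 12 h. The Dbp component did not pass in the first cycle alone (log2 1.03, adjusted p = 0.07). By edgeR's adjusted p, 0 of 4 members had such a component in cortex (0.332% of genes called), striatum (0.0277%) and hypothalamus (0.0686%). Dbp and Hlf in cortex had an unadjusted p under 0.05 (0.0231 and 0.0452), and no member did in the other 2. The share of all genes with an unadjusted p under 0.05 is not given here.

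The cycles were compared over ZT0, ZT3, ZT6, ZT9 and ZT12, which both hold. Single times could differ, as for Dbp in liver at ZT3, with 13.8 ± 13.8 CPM in the first cycle and 4.50 ± 2.74 in the second (SD, n = 6 each), and in striatum at ZT6, with 120 ± 57.9 (n = 5) and 76.9 ± 21.2 (n = 6). Over the 5 times together, Hlf in cortex was the sole call, lower in the second cycle by 0.12 on the log2 scale (-0.12 ± 0.04, adjusted p = 0.0409), where 6.82% of cortical genes were called. With the replicate number as a block it was -0.07 (adjusted p = 0.423), and without the libraries that stand apart Nfil3 passed as well (-0.12, adjusted p = 0.0464). In striatum, 0 of 4 passed edgeR's test (2.92% of genes called), with Dbp (-0.39 ± 0.12, adjusted p = 0.0577) and Tef (-0.27 ± 0.08, adjusted p = 0.0509) under 0.05 before adjustment. The share of all striatal genes under 0.05 before adjustment is not given here. In hypothalamus and liver, 0 of 4 passed and 0 of 19696 and 0 of 15604 genes did (0% each), also with DESeq2 size factors, and no member had an unadjusted p under 0.05. Over all genes of hypothalamus and liver, 1179 and 1101 had one.

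Since the activators and Nfil3 bind the same element, the sum of Dbp, Tef and Hlf was set against Nfil3 in each library, in FPKM. The mean ratio of the sum to Nfil3 in liver was 0.483 ± 0.112 at ZT0 (SD, n = 12; range 0.331 to 0.705), 0.965 ± 0.585 at ZT3 and 29.5 ± 6.72 at ZT9 (n = 11; range 22.9 to 42.5). In FPKM, the activators thus summed to less than Nfil3 in every liver library at ZT0, and to at least 22.9 times Nfil3 in every one at ZT9. The lengths that FPKM implies are 7865 bases for Tef, 6681 for Hlf and 2026 for Nfil3, near all exonic bases of each gene. GENCODE M21 gives these genes 10, 6 and 1 transcripts. How far the ratio depends on the length used was not tested. The ratio passed 1.74 at ZT18 and 1.09 ± 0.144 at ZT21 on its way down. In the brain, the sum stayed above Nfil3 in all libraries, with ZT means from 17.2 (ZT0) to 54.4 (ZT12) in cortex, 10.8 (ZT0) to 22.6 (ZT9) in hypothalamus and 16.6 (ZT0) to 38.4 (ZT9) in striatum.

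The make-up of the sum changed as well. Dbp was 2.97 ± 0.712% of it in liver at ZT0, where Hlf made 59.0% and Tef 38.0%, and 51.6 ± 2.52% at ZT9. In the brain the share of Dbp moved less, from 11.4 to 23.4% in cortex, 19.1 to 31.4% in hypothalamus and 19.3 to 34.2% in striatum, and Tef was the largest share at every time there. These are mRNA ratios per length and not ratios of protein.

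**Figure D3:**
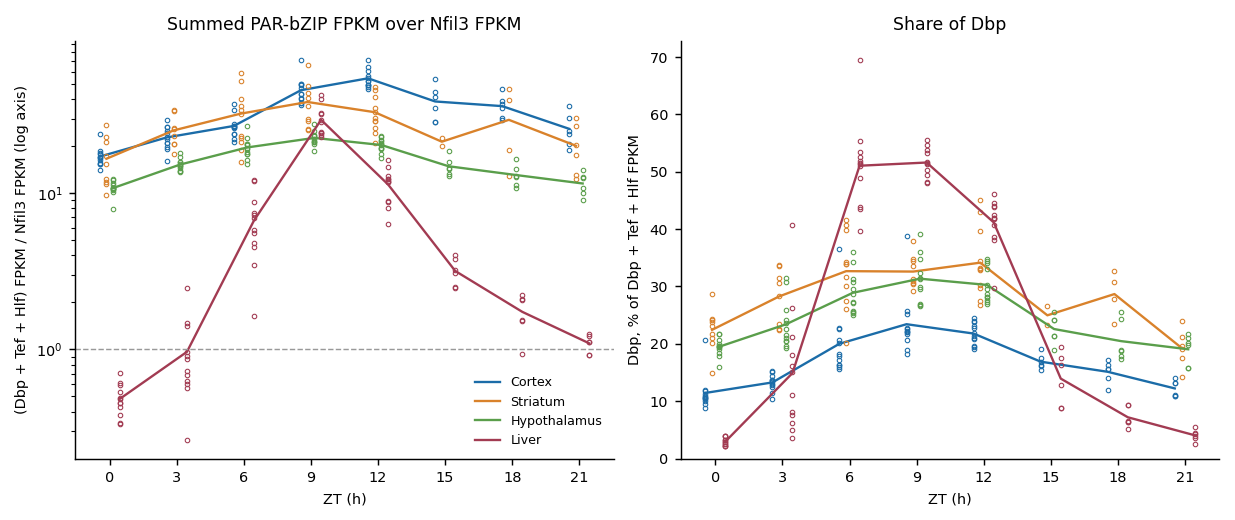
Left, the summed FPKM of Dbp, Tef and Hlf over that of Nfil3 (log axis, dashed line at 1) against ZT in hours; right, Dbp as a percentage of the sum; points are libraries and lines join the ZT means of each tissue. Liver alone goes below 1, with 0.483 at ZT0, and its Dbp share runs from 2.97% to 51.6%.

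Mice of the same time point also differed from each other, and the mouse code in the labels ties tissues to animals. Deviations of log2 CPM from the mean of the time point were correlated over mice, with permutations within time points. Between 2 tissues of the same mouse, 1 of 24 relations of a member with itself passed: Dbp in cortex with Dbp in liver (Pearson r = 0.327, permutation p = 0.00101, adjusted p = 0.0242; Spearman rho = 0.360, p = 0.00157; n = 77; r = 0.371 without the 2 farthest mice). In the first cycle alone its r was 0.409 and the adjusted p = 0.0922. The 24 values ran from -0.282 to 0.327 with a median of 0.0580, and 14 of them were positive.

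Between members within a tissue, 17 of 24 relations passed, and 13 to 15 did under the 3 other settings. How often other pairs of genes pass was not computed. In liver, Dbp and Tef deviated together (r = 0.661, permutation p = 2e-05, adjusted p = 0.00012; rho = 0.675, p = 1e-05, the smallest the 100000 permutations can give; r = 0.531 without the 2 farthest), and Dbp and Nfil3 in opposite directions (r = -0.546, permutation p = 2e-05, adjusted p = 0.00012; rho = -0.395, p = 0.00077; r = -0.384 without the 2 farthest). The liver libraries at ZT3 give an example: replicate 3 had the highest Dbp (39.3 CPM) and Tef (98.6) with the lowest Nfil3 (26.5), and replicate 11 had the lowest Tef (36.3) and the highest Nfil3 (76.8) with Dbp at 1.48. After TMM scaling, Tef and Nfil3 were negatively related in the 4 tissues (in liver not under the library total), with r = -0.651 in liver, -0.588 in striatum, -0.452 in hypothalamus and -0.391 in cortex (adjusted p = 0.00012, 0.00012, 0.00056 and 0.00315 by permutation). In the first cycle alone the relation did not pass in striatum (r = -0.394, adjusted p = 0.0837) or cortex (r = -0.268, adjusted p = 0.0996). In liver that relation and the one of Hlf with Nfil3 depend on the scaling: with the library total r was 0.18 and 0.338, and that of Dbp with Nfil3 shrank to -0.145 (adjusted p = 0.445). Under the library total, liver ZT18 replicate 4 was at 28.8 CPM for Tef, 18.6 for Hlf and 6.24 for Nfil3. After TMM scaling it was at 133, 85.7 and 28.8. The part of this library in the turned relations was not tested. Under TMM scaling without the libraries that stand apart, Tef and Hlf each stayed negatively related to Nfil3 in liver, and both relations passed.

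Brain tissues differed in the sign of the other relations, apart from that of Tef with Hlf. Its r was positive throughout and passed for hypothalamus (0.354, adjusted permutation p = 0.011) and liver (0.359, adjusted permutation p = 0.0446). It did not pass for striatum (0.314, adjusted permutation p = 0.0551) or cortex (0.122, adjusted permutation p = 0.252). Under other settings these calls could change, except the one for hypothalamus. Dbp and Tef were positively related in striatum (r = 0.563, permutation p = 0.00012, adjusted p = 0.00056; rho = 0.541, p = 0.00018; r = 0.518 without the 2 farthest) and negatively in hypothalamus (r = -0.268, permutation p = 0.0227, adjusted p = 0.0389; rho = -0.329, p = 0.00447; r = -0.250 without them). The latter did not pass in the first cycle alone (r = -0.293, adjusted p = 0.0591). Dbp and Nfil3 were positively related in hypothalamus (r = 0.447, permutation p = 0.00039, adjusted p = 0.00134; rho = 0.450, p = 0.00035; r = 0.429 without the 2 farthest), where liver had a negative r; the difference between tissues was not tested. Under the library total it did not pass (r = 0.25, adjusted p = 0.0709), as in liver. In cortex, the relations of Dbp with Hlf, Dbp with Nfil3 and Hlf with Nfil3 (r = -0.384, -0.312 and 0.332) rested on the 2 libraries nearly without the cortical marker, and without them r was -0.073, -0.146 and 0.052.

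**Figure D4:**
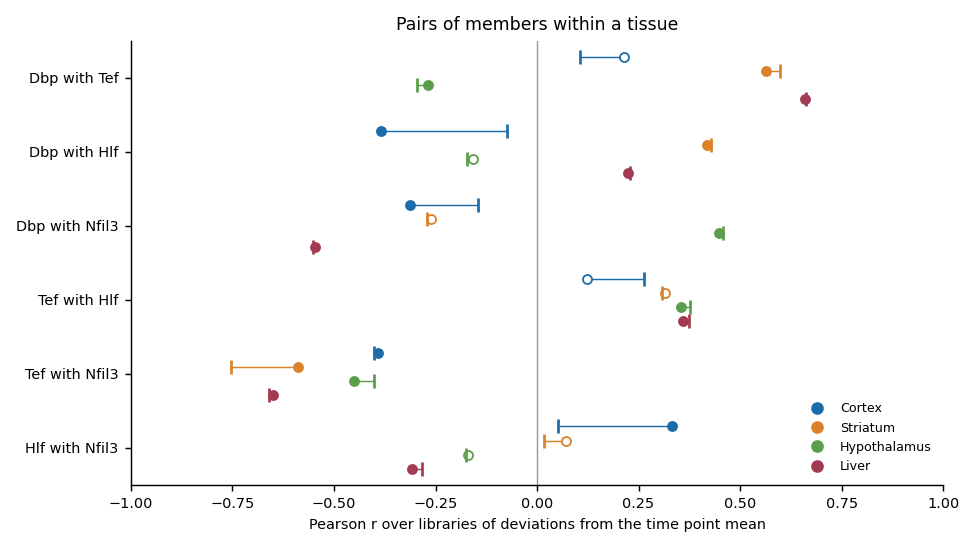
Pearson r over mice of the deviations from the time point mean, for each pair of the 4 genes in each tissue; dots are r with all libraries (filled where the adjusted permutation p is under 0.05) and ticks are r without the libraries that stand apart. Dbp and Tef reach 0.661 in liver and -0.268 in hypothalamus, and Tef and Nfil3 are below 0 in all 4 tissues, in liver only under this TMM scaling (0.18 under the library total).

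Genes known to act on the members or to be their targets were counted next, in lists chosen with results of these data known. Of 11 clock genes that bind or regulate through E-boxes, 11 were called rhythmic in liver, 11 in cortex, 10 in hypothalamus and 5 in striatum, with median log2 ratios of 3.66, 0.83, 0.32 and 0.55, beside 0.38, 0.19, 0.16 and 0.24 over all genes tested. Over all genes, 72.8% were called in liver, 43.7% in cortex, 24.3% in hypothalamus and 5.7% in striatum. Ciart, a repressor of CLOCK and BMAL1, reached 101-fold in liver with a peak at ZT12.0, and Npas2, the relative of CLOCK, 353-fold at ZT0.28. Ciart was also the widest of this list in cortex (4.19-fold), striatum (2.39-fold) and hypothalamus (1.71-fold). Of the genes acting through the RRE, 2 of 5 were called in each brain tissue (40%) and 3 of 4 in liver (75%), which in cortex and liver is near the 43.7% and 72.8% of all genes. Nr1d1, which encodes REV-ERB alpha, peaked at ZT7.22 in liver with 79.9-fold, ahead of Dbp, and in hypothalamus at ZT7.16 with 1.77-fold.

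Of clock genes with a known D-box, 6 of 7 were called in liver, 6 of 8 in cortex, 6 of 8 in hypothalamus and 3 of 8 in striatum (85.7%, 75%, 75% and 37.5%, beside 72.8%, 43.7%, 24.3% and 5.7% of all genes). Every gene of this list is also in the E-box or RRE list above, so these counts are not separate from those. Per3 is the one gene of these lists whose promoter window held the D-box searched, in 2 copies beginning at -205 and -158 bases from its start site, in the window chr4:151044666-151044915 on the - strand. They are shown, with the D-box in capitals, because Per3 is also among the genes most like Tef in time course.
Per3 site at chr4:151044852-151044881: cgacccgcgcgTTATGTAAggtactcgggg
Per3 site at chr4:151044805-151044834: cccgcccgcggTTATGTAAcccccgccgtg
Per3, a period gene of the clock, had a ratio of 20.7-fold in liver with a peak at ZT12.2 ± 0.19, and its neighbour in the list, Per1, 21.5-fold at ZT13.2.

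Of 21 genes known as PAR-bZIP targets, mostly from mouse liver, 13 of the 20 tested were called in liver (65%, beside 72.8% of all genes). In the brain, 6 of 12 were called in cortex (50%, beside 43.7%), 1 of 12 in striatum (8.33%, beside 5.7%) and 7 of 12 in hypothalamus (58.3%, beside 24.3%). The shares called in liver, cortex and striatum are therefore near the background. The median log2 ratio of the 20 in liver was 1.03, beside 0.38 over all genes. Of the 13 called in liver, 9 peaked between ZT9 and ZT15 (69.2%, beside 23% of all called genes) and none between ZT3 and ZT9. Alas1, which makes the first step of haem synthesis, had 8.35-fold at ZT14.8, the acyl-CoA thioesterase Acot3 8.20-fold at ZT13.8, and the cytochrome P450 Cyp2a5 7.86-fold at ZT12.9. Cyp2a5 has a near-identical copy in Cyp2a4, so reads of the pair may be split between them. These peaks came later than that of Dbp in liver at ZT9.69.

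In the brain, the efflux transporter Abcg2 was the target called in all 3 tissues, with 1.34-fold at ZT13.0 in cortex, 1.46-fold at ZT13.6 in striatum and 1.38-fold at ZT15.5 in hypothalamus. The D-box letters searched were in 0 of the 23 windows of the 18 target genes with a window. Of the C/EBP relatives, bZIP factors with a related binding site, 6 of 6 were called in liver, 3 of 5 in cortex, 2 of 5 in hypothalamus and, by edgeR, 0 of 5 in striatum, where 2 had an unadjusted p under 0.05. Of all genes, 72.8%, 43.7%, 24.3% and 5.7% were called in these tissues after adjustment. The share of all striatal genes with an unadjusted p under 0.05 is not given here. Cebpd led in liver with 3.06-fold at ZT14.5.

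**Figure D5:**
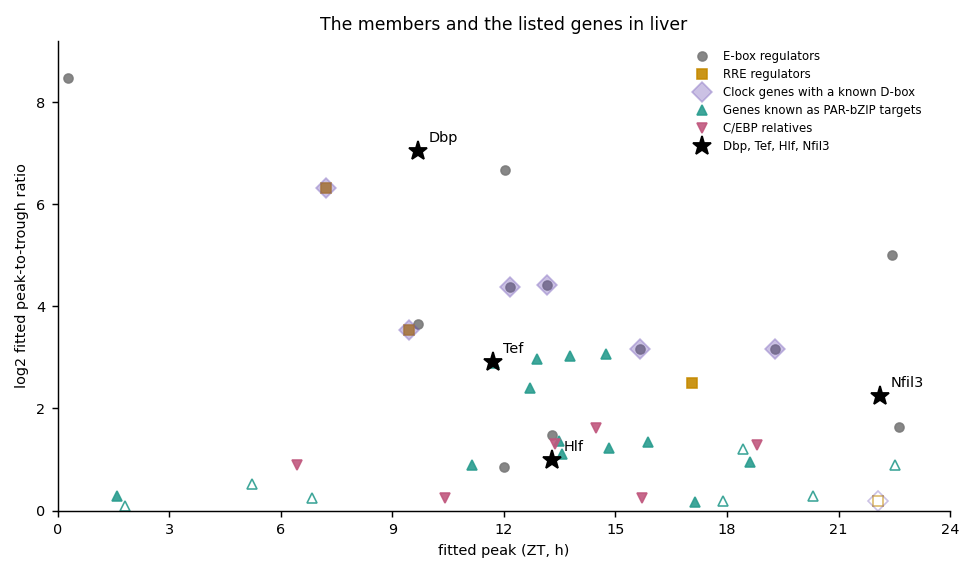
Fitted log2 peak-to-trough ratio in liver against fitted peak time (ZT in hours) of the genes of the 5 lists and the 4 members; open symbols are not called. The called target genes gather between ZT9 and ZT15, where 9 of 13 lie, to the right of Dbp at ZT9.69.

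The genes whose time course was most like that of each member were ranked by the mean over the 4 tissues of Pearson's r over the 13 time point means, among 11430 genes, the other members being set apart. For Dbp these were Ciart (mean r = 0.895), the RNA-binding protein gene Hnrnpdl (0.883) and 2810403D21Rik (0.865), and the least like was Fkbp4, a co-chaperone of HSP90 (-0.882). Nfil3 itself had -0.898 with Dbp, from -0.854 in striatum to -0.938 in liver. For Tef they were the receptor kinase gene Mertk (0.842), Wipf3 (0.780) and Per3 (0.768), with Ring1, a Polycomb gene, least like (-0.743). For Hlf the values were lower, at 0.685 for Wipf3, 0.680 for the deubiquitinase gene Usp2 and 0.649 for Pitpnm2, and -0.761 for Anxa9. The likeness of Usp2 to Hlf was 0.987 in liver and 0.146 in cortex.

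For Nfil3 the most like were Serpinh1, a collagen chaperone (0.874), Stip1, an HSP90 co-chaperone (0.867), and Zfp36l1, a gene of mRNA decay (0.866), and the least like was Gpcpd1 (-0.899). These values describe 13 points per tissue that share animals across tissues. Likeness between the members themselves was 0.709 for Tef and Hlf, 0.632 for Dbp and Tef and 0.543 for Dbp and Hlf.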

How the data were processed

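Per the labels' protocols, the Qiagen miRNeasy kit was used for total RNA and Illumina protocols for the libraries. The authors deposited raw counts and FPKM values by Ensembl gene for each tissue. FPKM was checked against counts over library totals, and the gene lengths it implies were 2993 bases for Dbp, 7865 for Tef, 6681 for Hlf and 2026 for Nfil3. HTSeq 0.10.0, STAR 2.7.3a and the builds GRCm38 and mm10 are named in the submitters' processing notes. Annotation release and strand setting: not given in the sources used here. Of 48795 identifiers, 48349 were matched to a symbol.

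The members and gene lists were chosen with earlier results of these data known. Counts were fitted with edgeR 4.0.16 (R 4.3.3) in each tissue, after filterByExpr by ZT group and TMM scaling, by the quasi-likelihood test of cosine and sine of ZT (24 h, 2 degrees of freedom), with Benjamini-Hochberg adjustment over all genes tested and calls under 0.05. ZT contrasts used ZT as a factor of 8 groups. Tissue pairs were fitted together, with interaction terms. Standard errors come from the delta method or, for single terms, from the F statistic. The mouse code marks the same animal, so tissues are paired by it (79 codes, 58 of them in 4 tissues); the pairing was checked as a block over mice with both tissues. Of these codes, 1 was found in striatum alone and is written unlike the others, and it was kept as its own animal. It carries the number of a mouse of the same time point that has cortex, hypothalamus and liver libraries but none from striatum. The labels do not state whether these are 1 animal. If so, its striatum library was left out of the mouse blocks and of the correlations between striatum and other tissues. Correlations used log2 CPM with a prior count of 2 and 100000 two-sided permutations, adjusted over 24 relations a family. Replicates are separate mice. The scripts were tested on simulated data. Other settings were DESeq2 1.42.0, its size factors, limma 3.58.1 on log2(FPKM + 0.1) and log2(FPKM + 1), other filters, the first cycle alone, cycle, library code or replicate number as a covariate, ZT as a factor, and leaving out libraries. Scaling tissue pairs to the library total was added after seeing the data. Named genes were the members, up to 3 called genes a list and tissue with the largest ratio, the 3 genes most like and the 1 least like each member, genes sharing exonic bases with a member, and markers where a result turns on them.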

Additional observations from a re-analysis of the deposited data

Results flagged for a closer look

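In 56 groups of 4 to 10 libraries, a highest or lowest library was looked for that lies far from the rest by Dixon's criterion, which marks about 1 in 20 groups by chance, and 4 groups had one. Tef in hypothalamus at ZT15 had replicate 5 at 373 CPM, Hlf in cortex at ZT21 had replicate 2 at 250 CPM, and Nfil3 in liver at ZT18 had replicate 6 at 58.2 CPM. Nfil3 in striatum at ZT21 had replicate 3 at 15.8 CPM, in the library with the cerebellar marker Gabra6 at 874 CPM.

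The rhythm of the members differed between tissues by the interaction test, with the adjusted p of edgeR's quasi-likelihood test given here. Between cortex and hypothalamus it was 1.84e-05 for Dbp, 1.63e-11 for Tef, 0.00229 for Hlf and 5.03e-06 for Nfil3, with log2 sizes of 0.71, 0.37, 0.33 and 0.65. Between cortex and liver it was 9.3e-43, 3.06e-40, 2e-10 and 5.69e-11 in the same order, with log2 sizes of 5.80, 2.60, 0.69 and 1.38. Between hypothalamus and liver it was 2.46e-44, 4.76e-43, 6.47e-14 and 4.72e-16, with sizes of 5.94, 2.79, 0.81 and 1.55. Between striatum and liver it was 2.71e-32, 3.82e-29, 4.52e-06 and 4.36e-11, with sizes of 5.99, 2.84, 0.90 and 1.57.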

How the results depend on the processing

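The number of members called rhythmic was unchanged under all 12 other settings in cortex, hypothalamus and liver and all 18 in striatum, where leaving out each library of ZT15 or ZT18 kept the calls of the rhythm and of both ZT contrasts at 2 to 2. Without the libraries that stand apart, the members called were 2 between cycles in cortex and 0 at ZT9 against ZT21 in striatum, and 2 correlations between tissues passed. In the first cycle alone, 0 were called in both striatal contrasts and 0 correlations between tissues passed. The labels state no pairing by replicate number: libraries of the same number had median correlations of 0.072 (cortex), 0.092 (hypothalamus), 0.039 (striatum) and 0.0077 for liver, and 13 of 78, 22 of 77, 6 of 60 and 12 of 77 libraries correlated best with their own number. With the replicate number as a block, 0 members were called between cycles in cortex, and the cycle difference of Tef there was 0.0105.

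Directions turned for values that were not called, apart from the relations named here: in the first cycle alone, ZT9 against ZT21 of Hlf in cortex (0.0295), and of Tef and Hlf in striatum (0.0588 and -0.0181). The called level difference of Hlf between hypothalamus and liver turned to -0.647 under the library total, where the called relations in liver of Tef with Nfil3 and Hlf with Nfil3 turned to 0.18 and 0.338. Among uncalled relations, those of Nfil3 between cortex and liver and between striatum and liver turned to -0.127 and 0.0137 under the library total and to -0.0328 and 0.00428 in the first cycle, where Nfil3 between hypothalamus and liver (0.0225), Dbp between cortex and striatum (0.0253) and Hlf with Nfil3 in striatum (-0.0141) turned too. Without the libraries that stand apart, Dbp between cortex and striatum (0.058), Hlf between cortex and liver (0.167), Nfil3 between cortex and striatum (0.0384) and Nfil3 between hypothalamus and liver (0.0158) turned. The cause was not tested, other than that fewer libraries enter the fits of the first cycle. Between cycles, the calls over all genes were 1290 in cortex and 3076 without the libraries that stand apart, and 579 and 0 in striatum. Over all other values, 31 lost and 8 gained a call. Depth limits Dbp in liver at ZT0, where a library held 24 to 59 counts, and the 2 and 4 striatum libraries at ZT15 and ZT18 limit that tissue.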
